A study of Mus musculus with 12 samples.

Results

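Solute carriers are membrane proteins that move amino acids, sugars, organic ions, metals, phosphate, nucleotides and vitamins across the plasma membrane and across the membranes of mitochondria, the Golgi apparatus and lysosomes. Their mouse genes carry the symbol *Slc*, a family number and a member letter and number. In the hepatocyte they take up nutrients and drugs from the blood, feed gluconeogenesis, ureagenesis and fatty acid synthesis with metabolites, and release glucose, bile components and metals. The genes described here are those whose symbol begins with *Slc* and a digit and whose probe was detected (detection p at most 0.05) on 6 or more of 12 arrays, each read by its brightest probe. Probes annotated to several gene names were not used. The rule left out 11 genes (*Slc44a1*, *Slc10a1*, *Slc27a5*, *Slc25a20*, *Slc25a13*, *Slc25a15*, *Slc1a2*, *Slc2a2*, *Slc40a1*, *Slc51b* and *Slc4a1*). The paper lists *Slc44a1* among the genes lower after excision of *Gata4* and *Gata6*, so the counts below do not include it. The terms for symbol and detection used no difference between groups. The rule found 158 genes among 8559 genes chosen by the same probe rule. Of these, 5 bear the prefix without being carriers themselves: *Slc2a4rg-ps*, *Slc4a1ap*, *Slc7a6os*, and the scaffold genes *Slc9a3r1* and *Slc9a3r2*.

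RNA came from hepatocytes of mice of the labelled strain C57BL/6 x 129Sv, between 2.5 and 4.5 months old, all homozygous for floxed *Gata4* and *Gata6* (Gata4,6 fl/fl). The hepatocytes had been freed with collagenase and purified on a Percoll gradient. Mice had received AAV8-Tbg-Cre, which carries the recombinase that excises both genes (6 arrays labelled AAV-Cre), or AAV8-Tbg-GFP as the control (6 arrays labelled AAV-GFP), by intravenous injection 2 weeks earlier. The thyroxine-binding globulin (Tbg) promoter is active in hepatocytes, so other liver cells were not targeted, and the control mice carried the floxed alleles and a virus too. The comparison asks which hepatocyte transcripts differ when GATA4 and GATA6, zinc finger factors that bind the word GATA in DNA, are both excised. It cannot tell a need for either factor alone from a need for both. Nothing in the labels says that each array is a separate animal, so p-values measure the spread between these arrays.

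Arrays had median exported signals of 215 to 288 and detected 14318 to 16381 probes and 144 to 156 of the 158 transporter genes. Log2 values of array pairs correlated at 0.966 to 0.989 across probes. Of the targeted genes, *Gata6* went against the label: its probe ILMN_2868133, with no stated place in the transcript relative to the excised part, read 1.71 higher on the log2 scale on the arrays labelled AAV-Cre (limma, Benjamini-Hochberg adjusted p = 0.000377). The other *Gata6* probe, ILMN_1255968, detected on 0 AAV-GFP arrays and 4 labelled AAV-Cre, read 0.26 higher on the latter (limma adjusted p = 0.8). *Gata4* was near background, with 0 detected AAV-GFP arrays and 1 labelled AAV-Cre. Every direction therefore rests on the labels. By RT-qPCR the paper reports the mRNAs of *Gata4* and *Gata6* as depleted after this excision. The hepatocyte markers *Hnf4a*, *F10*, *Apob* and *Serpina1a* were detected on all 12 arrays. The array labelled AAV-Cre replicate 3 stood apart. There *Xist*, the transcript of the inactive X chromosome, read 13.31 against 7.95 or less on the other arrays, the Y-linked *Eif2s3y* read 7.75 against 11.53 or more. Of the erythroid genes measured, *Hba-a1*, a globin, read 12.66 there against 11.27 or less, and *Alas2*, which starts heme synthesis in red cell precursors, 9.65 against 12.16 or more, in opposite directions. Sex cannot be told apart there from anything else particular to that array. Differences with and without it are given for the 6 genes for which it lay more than 0.5 log2 units outside the others. They are also given for some genes where it lay outside by less. AAV-GFP replicate 4 differed in blood cell genes. The neutrophil genes *S100a8* and *S100a9* read 10.26 and 10.27 there, against 8.64 or less on every other array. *Camp* and *Ltf*, the other neutrophil genes measured, were also highest there (8.25 and 8.68), and the *Hba-a1* value of 11.27 was from this array.

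Transporter transcripts covered much of the detectable range, from a mean of 8.16 to 15.70 on the log2 signal scale, where the lowest detected signal averaged 8.22 per array. Of the 158 genes, 134 (84.8%) were detected on all 12 arrays and 24 on 6 to 11. A further 47 *Slc* genes had a probe detected on 1 to 5 arrays and stayed outside the rule, 37 of them on 1 to 3 arrays and 10 on 4 or 5. None of the 47 passed the test in limma (4 had an unadjusted p under 0.05), and the lowest adjusted p among them was 0.297, for *Slc26a6*, an anion exchanger detected on 4 AAV-GFP arrays and on none labelled AAV-Cre. That gap of 4 arrays was held by this 1 gene, whose signal near background differed by -0.26 on the log2 scale.

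Between the groups, 1 of the 158 transporter genes passed at an adjusted p under 0.05 (0.633%). Among all 8559 genes chosen the same way 23 passed, or 0.269%, and 0.222% passed and were lower. At the looser threshold of 0.25 the same single gene passed, beside 0.9% of all genes. At an unadjusted p under 0.05 there were 10 transporter genes, 7 lower and 3 higher, or 6.33% beside 6.75% of all genes (3.46% lower and 3.29% higher). The arrays separated without overlap for 1 transporter gene (0.633%) and for 0.759% of all genes. These shares lie near the background, and the single gene behind them was *Slc17a4*.

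*Slc17a4* belongs to the sodium and phosphate cotransporter family *Slc17*, and its human protein carries organic anions such as urate, and also thyroid hormones. Its probe ILMN_2672147 was detected on all 12 arrays and was the only kept probe of the gene. Log2 signals on the AAV-GFP arrays were 10.62, 10.14, 10.10, 10.17, 10.63 and 10.12 for replicates 1 to 6. Those labelled AAV-Cre gave 9.29, 9.23, 9.96, 9.04, 8.64 and 8.82. Every array labelled AAV-Cre thus lay below every AAV-GFP array, and the closest was replicate 3, the array that stood apart. The means were 10.30 ± 0.25 (SD, n = 6) and 9.16 ± 0.46, a 2.19-fold difference. In limma the log2 difference was -1.13 (SE 0.19, 95% confidence interval -1.54 to -0.72, adjusted p = 0.0329). The exact two-sided permutation p was 0.00216, the smallest that 924 assignments of the arrays can give. Any gene whose groups do not overlap has this exact p, and it is not adjusted for the choice among genes. In bulk RNA, fewer cells with the transcript and less of it per cell cannot be told apart.

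*Slc17a4* was lower under every alternative tried, but its call was near the threshold. Since its groups did not overlap, leaving out 1 array could not turn its direction. Changing the filter, the block or the choice of probes left the difference at -1.13. Only the other normalizations could have turned it. Leaving out any 1 of 10 arrays moved the adjusted p to between 0.0607 and 0.104. Without AAV-Cre replicate 1 it was 0.0461, and without AAV-Cre replicate 3 it was 0.00244, with a difference of -1.29. Scaling the arrays to a common median in place of quantile normalization gave -1.07 and an adjusted p of 0.262, and the groups then overlapped. With normexp background correction the adjusted p was 0.0818 (difference -1.61). With the replicate number as a block it was 0.107, so the call was lost there too. The summed erythroid markers *Hba-a1* and *Alas2* ran from 12.72 to 13.38 on the AAV-GFP arrays and from 12.37 to 12.92 on those labelled AAV-Cre, with both genes detected on all arrays (2 of 6 listed genes were measured). The sum joins genes that lay in opposite directions: *Hba-a1* ran from 8.33 to 11.27 on the AAV-GFP arrays and from 9.38 to 12.66 on the others, and *Alas2* from 12.61 to 13.07 and from 9.65 to 12.76. Their part in the *Slc17a4* result was not tested.

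The gene lies on chromosome 13 in a row of related genes in the order *Slc17a2*, *Slc17a3*, *Slc17a1* and *Slc17a4*. *Slc17a2* read 14.10, 13.73, 13.84, 13.76, 13.78 and 14.00 on the AAV-GFP arrays and 13.78, 13.75, 14.00, 13.86, 14.04 and 13.81 on the arrays labelled AAV-Cre. Its groups overlapped fully, with a log2 difference of 0.01 (95% confidence interval -0.17 to 0.18). *Slc17a3*, known in humans as a urate exporter, differed by 0.03 (-0.20 to 0.27). Both intervals lie apart from that of *Slc17a4*, although the difference between genes was not itself tested. *Slc17a1*, next to *Slc17a4*, was outside the rule: it had 0 detected AAV-GFP arrays and 3 detected arrays labelled AAV-Cre, with a difference of 0.26 and an adjusted p of 0.797. Family members on other chromosomes were *Slc17a5*, the lysosomal sialic acid exporter, at -0.14, *Slc17a9*, the vesicular nucleotide transporter, at 0.06, and *Slc17a8*, a vesicular glutamate transporter, at 0.01, none of which passed the test.

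**Figure D1:**
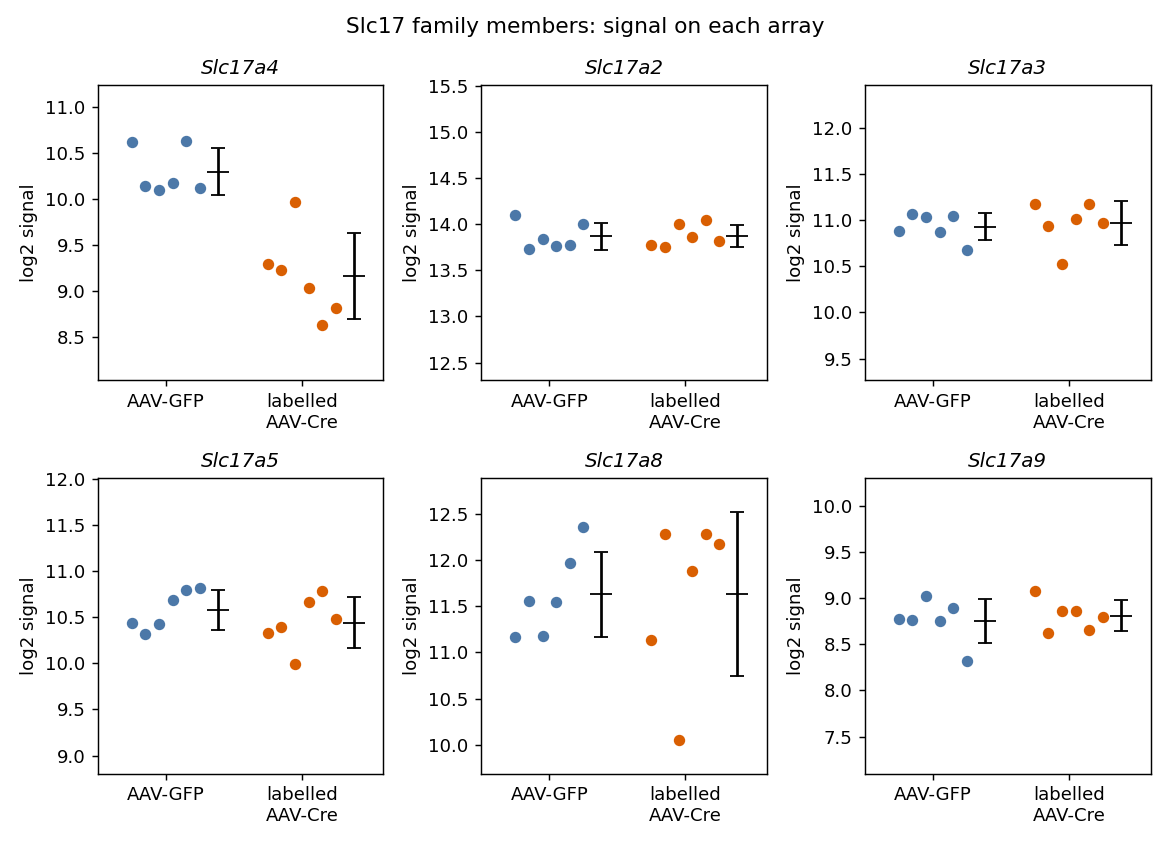
Log2 signal on each of the 12 arrays for the 6 *Slc17* family members, with each group's mean and SD (n = 6) as a bar beside its points, replicates 1 to 6 from left to right and every panel 3.2 log2 units high. For *Slc17a4* the arrays labelled AAV-Cre lie between 8.64 and 9.96 and the AAV-GFP arrays between 10.10 and 10.63, while the groups of the other 5 genes overlap.

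Apart from this gene, differences were small. Over the 158 genes the median log2 difference was 0.01 (quartiles -0.07 and 0.10), beside -3e-04 over all 8559 genes, with 89 genes above 0 and 69 below. The highest value was 0.39. How far a difference can be bounded varied with the spread between arrays. The 95% confidence interval lay wholly within 2-fold for 151 genes (95.6%, beside 96.7% of all genes) and within 1.5-fold for 129 (81.6%, beside 88.5%). The 7 genes whose interval reached beyond 2-fold in either direction were *Slc17a4*, *Slc25a17*, *Slc25a33*, *Slc35c1*, *Slc39a4*, *Slc66a2* and *Slc8b1*. The SD between arrays of a group had a median of 0.21 for the transporter genes and 0.18 for all genes.

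**Figure D2:**
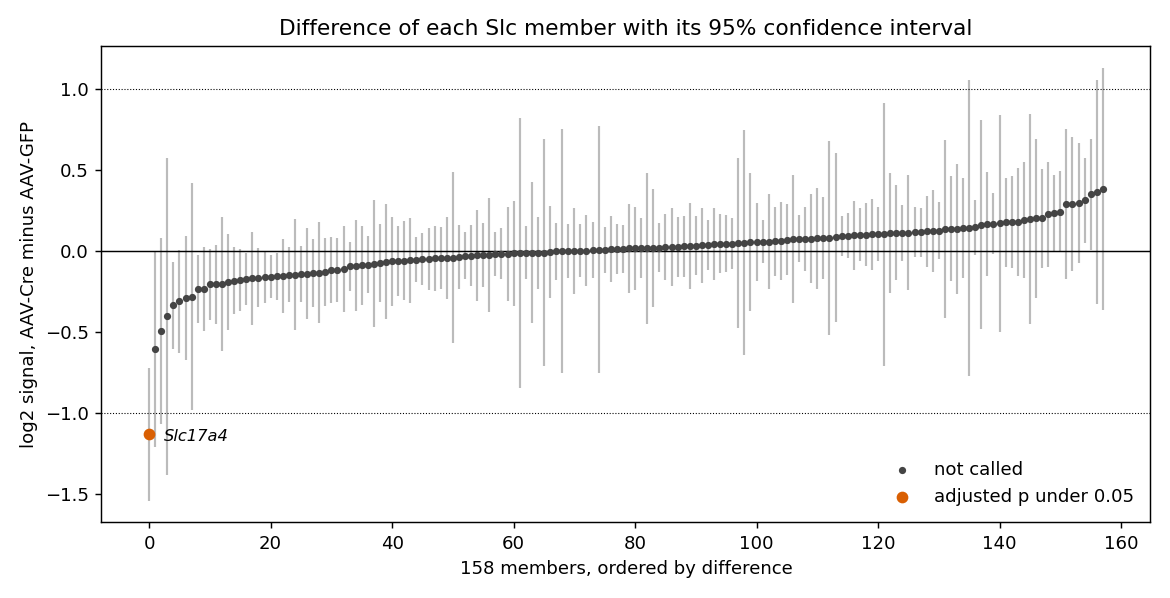
Each of the 158 transporter genes, ordered along the horizontal axis from the lowest to the highest difference, with its log2 difference of AAV-Cre minus AAV-GFP (dot) and limma's 95% confidence interval (line), dotted lines marking 2-fold. *Slc17a4* (-1.13) is the only gene past the threshold, and the others lie between -0.61 and 0.39.

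Genes were grouped by the substrates for which their families are known, so a group can hold members with other substrates. Outside the phosphate families no group held a gene that passed in limma, and genes with an unadjusted p under 0.05 numbered 2 each for amino acids, nucleotide sugars and zinc, and 1 each for sugars, organic ions and mitochondrial carriers. Among 20 genes of amino acid families the median difference was -0.03, with 7 above 0 and 13 below. *Slc38a4*, a system A transporter for neutral amino acids, read 11.95, 11.98, 12.18, 12.16, 11.68 and 12.13 on the AAV-GFP arrays and 11.41, 11.59, 11.25, 11.75, 12.12 and 12.09 on the arrays labelled AAV-Cre. Replicates 1, 2 and 3 of the latter lay below every control and the other 3 among them (difference -0.31, 95% confidence interval -0.63 to 0.01, adjusted p = 0.994). The glutamine transporter *Slc38a3* differed by -0.17 (-0.46 to 0.12) and *Slc7a2*, which takes up arginine, lysine and ornithine, by 0.08 (-0.52 to 0.68). *Slc6a8*, the creatine transporter on the X chromosome, was read at 8.73 ± 0.26 and 9.04 ± 0.19 (difference 0.31 with SE 0.12, adjusted p = 0.807, exact p = 0.0455 by permutation).

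The sugar families held 10 genes with a median of 0.04. *Slc2a1*, the widely expressed glucose transporter GLUT1, differed by 0.06 (95% confidence interval -0.37 to 0.48), and *Slc2a9*, a urate transporter of the liver, by -0.15 (-0.32 to 0.02). *Slc50a1*, a sugar exporter, was at -0.24 with an adjusted p of 0.889. Families for organic anions, organic cations and bile acids held 12 genes with a median of 0.11. *Slc22a7*, an organic anion transporter of the hepatocyte, read 10.13, 10.00, 10.02, 9.41, 10.12 and 9.77 on the AAV-GFP arrays and 10.25, 10.15, 10.15, 10.32, 10.10 and 9.93 on the arrays labelled AAV-Cre. Replicate 4 of the controls was the lowest, and the groups overlapped (difference 0.24, 95% confidence interval -0.01 to 0.49, adjusted p = 1). *Slc47a1*, which extrudes organic cations, stood at 14.79 ± 0.30 and 15.01 ± 0.27.

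Mitochondrial carriers were the largest group, with 28 genes and a median of 0.03. *Slc25a1*, which exports citrate for fatty acid synthesis, differed by -0.23 (95% confidence interval -0.49 to 0.03), and the dicarboxylate carrier *Slc25a10* by 0.06 (-0.24 to 0.35). The highest difference among all transporter genes was that of *Slc25a33*, a pyrimidine nucleotide carrier. It read 10.56, 11.34, 11.79, 11.96, 11.02 and 11.62 on the AAV-GFP arrays and 11.16, 11.27, 10.68, 12.49, 12.34 and 12.65 on the arrays labelled AAV-Cre. Replicates 4, 5 and 6 of the latter lay above all controls and replicates 1, 2 and 3 among them, and the difference of 0.39 did not pass (-0.36 to 1.13, adjusted p = 1). *Slc25a25*, a calcium-regulated carrier of ATP and phosphate, was at -0.28 with SDs of 0.65 in both groups.

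Nucleotide sugar transporters of the Golgi apparatus and relatives (*Slc35*, 15 genes) had a median of -0.04. *Slc35c1*, the GDP-fucose transporter, read 12.91, 13.34, 12.54, 13.12, 13.11 and 13.60 on the AAV-GFP arrays and 11.72, 11.90, 12.79, 12.93, 13.38 and 12.95 on the arrays labelled AAV-Cre. Replicates 1 and 2 of the latter were the low ones (difference -0.49, 95% confidence interval -1.07 to 0.08, adjusted p = 1), and a second probe of the gene gave -0.41. *Slc35e2* differed by -0.34 on one probe (adjusted p = 0.774, exact permutation p = 0.0346) and by -0.28 on the other (adjusted p = 0.955). *Slc35d2* stood at -0.29 and *Slc35b4* at 0.24, and neither passed.

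The zinc families *Slc30* (export from the cytosol) and *Slc39* (import) held 17 genes with a median of 0.00. *Slc39a4*, a zinc importer, read 12.68, 13.18, 13.31, 13.35, 12.71 and 12.22 on the AAV-GFP arrays and 13.30, 11.45, 12.55, 12.29, 12.48 and 11.74 on the arrays labelled AAV-Cre. Its value was the lowest after *Slc17a4*, with replicate 1 of the arrays labelled AAV-Cre among the high controls (difference -0.61 with SE 0.28, adjusted p = 0.984, exact p = 0.0887 by permutation). Its other probe, detected on 8 arrays, gave -0.16, which was the widest gap between probes of one gene (0.45). *Slc30a3*, detected on 4 arrays of each group, differed by 0.35 (adjusted p = 0.984). *Slc39a14*, which imports zinc, iron and manganese, differed by 0.09 (-0.05 to 0.23), and the manganese exporter *Slc30a10* by 0.17 (-0.50 to 0.84).

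Groups for iron, manganese, copper and magnesium (7 genes, median 0.07), inorganic ions and pH (16 genes, 0.01), monocarboxylates and dicarboxylates (8 genes, 0.04), fatty acids and choline (5 genes, 0.03), vitamins (6 genes, 0.11) and nucleosides (3 genes, 0.12) held no gene with an unadjusted p under 0.05, and the remaining 2 genes had none either. *Slc27a2*, a fatty acid transport protein and acyl-CoA synthetase, was at 15.65 ± 0.15 and 15.76 ± 0.21. *Slc19a1*, the reduced folate carrier, differed by 0.29 (SE 0.19) and *Slc8b1*, the mitochondrial sodium and calcium exchanger, by 0.37 (SE 0.32). *Slc11a1*, a metal transporter known from macrophages, stood at 10.72 ± 0.19 and 10.70 ± 0.36. Summed macrophage markers ran from 10.17 to 11.42 on the AAV-GFP arrays and from 10.29 to 11.20 on the others, with 2 of 4 measured genes detected on all arrays. The phosphate families (9 genes, median 0.01) held *Slc17a4* and *Slc37a4*, the glucose 6-phosphate transporter of the endoplasmic reticulum, which differed by -0.02 (-0.38 to 0.33). In median scaling *Slc37a4* changed sign to 0.04.

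**Figure D3:**
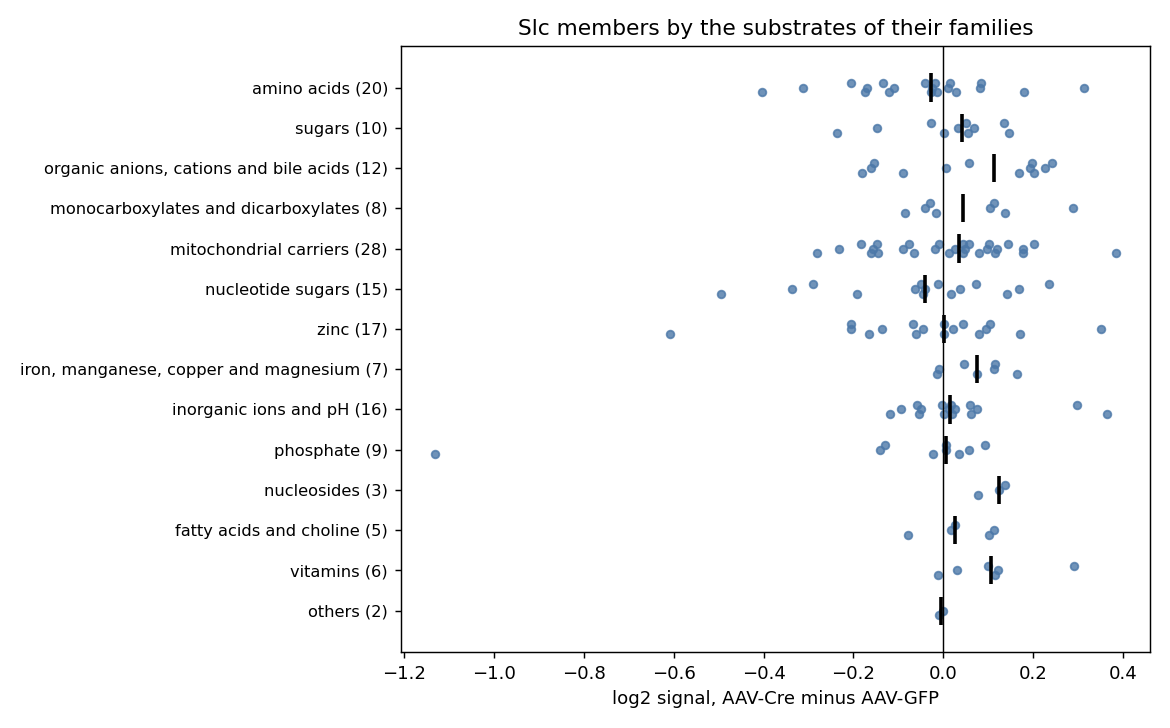
Log2 difference of AAV-Cre minus AAV-GFP (horizontal axis) for each transporter gene (dot), in rows by the substrates of its family with the number of genes in brackets, and the median of each row as a black bar. Medians lie between -0.04 and 0.12, and *Slc17a4* in the phosphate row is the only gene below -0.61.

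Of the 158 genes, 41 were read by more than 1 probe detected on at least 6 arrays. All probes of a gene lay on the same side of 0 for 25 of them and on both sides for 16, with a median gap of 0.08 between the lowest and highest probe. Choosing any detected probe in place of the brightest added no gene to those called.

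Some transporter transcripts differed far more between arrays of 1 group than between groups. The largest spread was that of *Slc66a2*, a member of the PQ-loop repeat family, with an SD of 0.91. It read 13.73, 13.63, 12.06, 12.52, 13.64 and 13.86 on the AAV-GFP arrays and 14.22, 13.59, 11.40, 11.96, 12.64 and 13.21 on the arrays labelled AAV-Cre. High and low arrays occurred in both groups, and replicates 3 and 4 were the lowest of each (difference -0.40, 95% confidence interval -1.39 to 0.58). Leaving out 1 array moved the difference to between -0.68 and -0.12, the latter without AAV-Cre replicate 3. *Slc25a17*, a carrier of the peroxisomal membrane, read 9.76 on AAV-GFP replicate 5 and between 11.06 and 12.58 on the other 11 arrays. *Slc38a2*, a system A amino acid transporter known to respond to amino acid shortage, read 10.79 on AAV-GFP replicate 4 and 11.11 on AAV-Cre replicate 4, and between 11.63 and 13.10 elsewhere. *Slc15a4*, a lysosomal transporter of histidine and small peptides, was highest on AAV-GFP replicate 2 (12.51), AAV-Cre replicate 6 (12.12) and AAV-Cre replicate 2 (11.78).

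The array labelled AAV-Cre replicate 3 lay more than 0.5 log2 units outside the range of the other 11 arrays for 6 transporter genes (3.8%, beside 1.43% of all genes). *Slc17a8* read 10.05 there against at least 11.13 elsewhere, *Slc35e3*, an orphan of the nucleotide sugar family, 10.53 against at least 11.40, and *Slc66a2* 11.40 against at least 11.96. *Slc13a3*, a sodium-dependent dicarboxylate transporter, read 9.96 there against at most 8.88, *Slc16a5*, of the monocarboxylate family, 10.84 against at most 9.83, and *Slc4a4*, the sodium bicarbonate cotransporter, 12.38 against at most 11.75. The rodent organic anion transporter genes *Slc22a28* (10.51 against at least 10.89) and *Slc22a30* (10.88 against at least 11.10) were also lowest on this array. *Slc22a26*, outside the rule because only 3 arrays detected it, read 12.03 there and at most 8.46 on the other arrays. Without this array the difference of *Slc13a3* was 0.07 in place of 0.29, that of *Slc16a5* -0.24 in place of 0.10 and that of *Slc4a4* 0.15 in place of 0.30. For the genes that were low there it was 0.32 in place of 0.01 (*Slc17a8*), 0.24 in place of 0.02 (*Slc35e3*) and -0.12 in place of -0.40 (*Slc66a2*), and *Slc25a33* moved from 0.39 to 0.60. By a smaller margin AAV-Cre replicate 3 was also the lowest array for *Slc38a4* (-0.22 without it in place of -0.31) and *Slc50a1* (-0.17 in place of -0.24). The same held for *Slc38a3* (-0.11 in place of -0.17) and *Slc25a1* (-0.20 in place of -0.23). It was the highest array for *Slc30a10* (0.03 in place of 0.17). None of these passed. For mice without *Gata4* alone the study lists the sugar transporter *Slc45a3* and *Slc35e3* as higher and *Slc16a5* as lower. Here *Slc45a3* differed by 0.13 (-0.42 to 0.68), *Slc35e3* by 0.02 (-0.45 to 0.48) and *Slc16a5* by 0.10 (-0.71 to 0.92), and none passed.

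**Figure D4:**
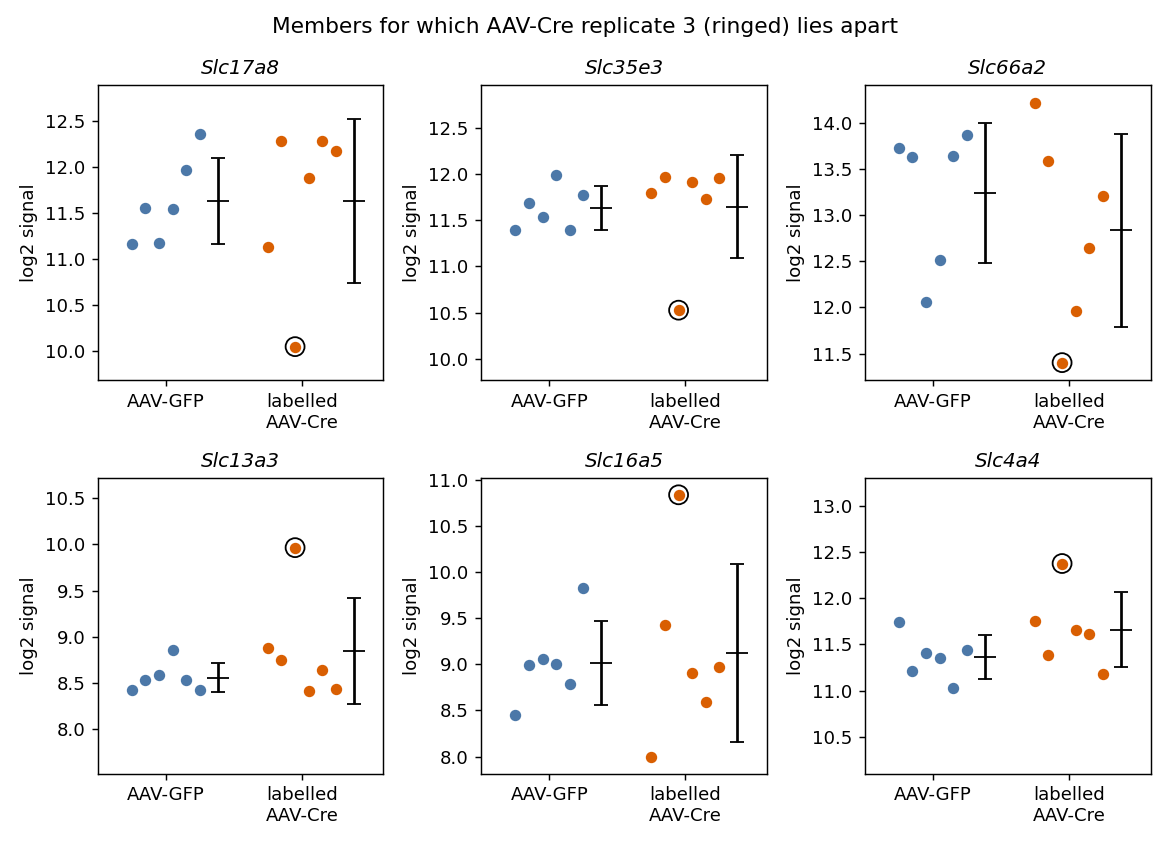
Log2 signal on each of the 12 arrays for the 6 transporter genes for which AAV-Cre replicate 3 (ringed) lay more than 0.5 outside the other 11, with each group's mean and SD (n = 6) as a bar and every panel 3.2 log2 units high. The ringed array is the lowest for *Slc17a8*, *Slc35e3* and *Slc66a2* and the highest for *Slc13a3*, *Slc16a5* and *Slc4a4*.

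Promoter windows were searched for GATA words (the word AGATAA or its variant AGATAG, and likewise TGATAA or its variant TGATAG, each on either strand), since the excised factors bind this motif. RefSeq windows of the 250 bases before the start were at hand for 125 of the 158 genes, but not for *Slc17a4* or *Slc39a4*. A word was held by 26 of the 125 (20.8%), beside 29.7% of all 27025 genes with a window, whether detected here or not. *Slc17a2* and *Slc17a3*, which lie in the row with *Slc17a4* but not next to it, are shown with *Slc38a4* and *Slc35c1*, whose negative differences did not pass. Sequences are in mouse build GRCm38.p6, 5′ to 3′ on the gene's strand, with any GATA word in capitals.
*Slc17a2*, chr13:23806743-23806992, plus strand: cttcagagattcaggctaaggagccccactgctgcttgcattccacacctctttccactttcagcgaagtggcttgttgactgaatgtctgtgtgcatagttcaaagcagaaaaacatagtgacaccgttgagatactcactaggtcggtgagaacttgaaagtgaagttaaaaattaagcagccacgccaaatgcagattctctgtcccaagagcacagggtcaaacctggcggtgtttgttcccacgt
*Slc17a3*, chr13:23839184-23839433, plus strand: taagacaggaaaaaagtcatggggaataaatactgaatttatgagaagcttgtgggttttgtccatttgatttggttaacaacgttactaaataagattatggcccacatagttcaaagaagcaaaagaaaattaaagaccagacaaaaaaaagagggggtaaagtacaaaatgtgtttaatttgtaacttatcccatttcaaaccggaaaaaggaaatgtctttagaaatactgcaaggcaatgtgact
*Slc38a4*, chr15:97055957-97056206, minus strand: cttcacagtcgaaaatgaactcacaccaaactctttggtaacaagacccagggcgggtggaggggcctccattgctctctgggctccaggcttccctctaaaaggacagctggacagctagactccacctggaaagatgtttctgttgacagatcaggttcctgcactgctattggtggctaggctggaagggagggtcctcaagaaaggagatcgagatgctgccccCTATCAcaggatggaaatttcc
*Slc35c1*, chr2:92460519-92460768, minus strand: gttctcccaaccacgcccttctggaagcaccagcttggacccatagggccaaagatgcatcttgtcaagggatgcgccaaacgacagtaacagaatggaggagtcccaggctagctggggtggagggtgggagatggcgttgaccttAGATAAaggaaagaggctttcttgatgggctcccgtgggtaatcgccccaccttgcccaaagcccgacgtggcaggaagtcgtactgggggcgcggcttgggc
The windows of *Slc17a2* and *Slc17a3* held 0 words, and those of *Slc38a4* and *Slc35c1* held 1 each. *Slc38a4* has 3 windows, of which the one shown held a word, and *Slc35c1* has 2, both with a word. A word is a match of letters and not a bound site. The genes shown were picked by hand and do not compare lower with unchanged genes.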

How the data were processed

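Total RNA of 12 hepatocyte samples was hybridised to Illumina MouseWG-6 v2 arrays. The authors exported from GenomeStudio (version not given in the sources used here) a linear signal intensity without background subtraction. The deposited export also gives each probe a detection p-value per array. A second deposited table, of quantile-normalized and filtered intensities, served as an alternative only. Folds of dim probes are compressed because the background stays in the signal.

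From the exported intensities of 45281 probes, values were quantile-normalized, taken to log2, and kept where the detection p was at most 0.05 on 1 or more arrays (20561 probes). Symbols came from the platform annotation and chromosomes from RefSeq on GRCm38.p6. Genes were read only from the 10838 kept probes with 1 gene name, so a gene whose probes carry several names is absent. Groups were compared with limma 3.58.1 (lmFit and eBayes, two-sided) under R 4.3.3, and p-values were adjusted by Benjamini-Hochberg across the kept probes. The study's methods name SAM, which was not run. Exact permutation tests used all 924 assignments. The fit was tested on simulated data. Alternatives were median scaling, normexp background correction, a filter at 6 arrays or none, the authors' values, the replicate number as a block, leaving out each array, all detected probes, and genes detected on all 12 arrays. The number of arrays limits the precision.

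Named genes were those called, the 10 highest and 10 lowest, those without overlap, the 6 most variable, 3 that the study's tables name, and 20 hepatocyte transporters given for context, of which 15 are among the 158. Genes of that list without a kept probe of a single gene name were not analysed here. The genes, lists and rule were chosen with earlier results of these data known. The slide of each array was not given in the sources.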

Additional observations from a re-analysis of the deposited data

Results flagged for a closer look

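Among 76 values of the named genes by group, 3 groups held an array whose gap to the nearest other array took an unusually large part of the group's range (Dixon's test), and over all 158 genes the share was 5.06%, near the 1 in 20 that chance flags. *Slc13a3* read 9.96 on AAV-Cre replicate 3 and 8.41 to 8.88 on the other arrays labelled AAV-Cre. *Slc35e3* read 10.53 on the same array and 11.73 to 11.96 on the others of its group. *Slc15a4* read 12.51 on AAV-GFP replicate 2 and 10.49 to 11.21 on the other AAV-GFP arrays.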

How the results depend on the processing

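*Slc17a4* stayed lower under all 20 alternatives, from -1.61 with normexp background correction to -1.03. Among these, only median scaling, normexp correction and the authors' values could have turned its sign. The number of transporter genes called at an adjusted p under 0.05, the number of named genes called and the number of substrate groups with a called gene were each 1, and fell to 0 with median scaling, with normexp correction (adjusted p of *Slc17a4* 0.0818) and in the fit with a replicate block (0.107). Leaving out 1 array gave 0 to 1 for each of these, and 1 to 2 genes without overlap, the second being *Slc6a12* without AAV-Cre replicate 3 and *Slc22a15* without AAV-Cre replicate 6. Groups of fewer arrays separate more easily for any gene, and shares over all genes were not counted under the alternatives. With median scaling 0 genes passed at 0.25, 0 had groups without overlap, and the median difference was 0.0554, where the median of all genes moved by 0.04. *Slc17a4* was called with the authors' values (0.0369), with the filter at 6 arrays (0.0293) and with no filter (0.0454). The cause of these changes was not tested. The labels number both groups alike without saying that equal numbers are a pair. Replicate numbers were not taken to pair the arrays, since not every same-numbered pair correlated above 0.1. Same-numbered arrays deviated together at over 0.1 for 4 of 6 numbers (-0.20 to 0.40). For 4 arrays labelled AAV-Cre the highest correlation was with their own number, a hint of pairing that the labels do not settle. The paper's RT-qPCR comparison of these groups used a paired t test.

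Of the 38 named genes 26 kept their sign throughout. The other 12 were not called and differed by little, so that 1 array could turn the sign: values without 1 array ran from -0.30 to 0.21 for *Slc38a2*, -0.24 to 0.33 for *Slc16a5*, -0.12 to 0.32 for *Slc17a8*, -0.0468 to 0.24 for *Slc35e3*, -0.0476 to 0.18 for *Slc2a1*, -0.12 to 0.20 for *Slc7a2*, -0.20 to 0.28 for *Slc15a4*, -0.10 to 0.0843 for *Slc37a4*, -0.0286 to 0.0506 for *Slc17a2*, -0.24 to 0.30 for *Slc25a17*, -0.0156 to 0.12 for *Slc17a3* and -0.0261 to 0.14 for *Slc25a10*. Median scaling turned *Slc38a2* to 0.0494, *Slc15a4* to 0.0489 and *Slc37a4* to 0.0404, normexp correction turned *Slc16a5* to -0.0295 and *Slc17a8* to -0.0135, and the authors' values turned *Slc17a8* to -0.0032. Signals near background understate folds, and 6 arrays a group bound a difference only as far as its interval goes.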
